A study of Homo sapiens with 16 samples.

Results

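MDA-MB-231 and MCF10A are human breast epithelial lines, and they were compared here after both had been exposed to 2-deoxyglucose (2DG). The comparison took all genes measured on the 4 arrays of 2DG-treated MDA-MB-231 and set them against the 4 arrays of 2DG-treated MCF10A, which are 8 of the 16 arrays in the series. The other 8 arrays are the vehicle arrays of the same lines, 4 each, and served to sort the line differences seen under 2DG into those that were already there, those that arose and those that were lost. MDA-MB-231 is an established metastatic breast carcinoma line of the triple-negative type, and MCF10A is an immortalised, non-tumorigenic mammary epithelial line.

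Cells of both lines received 50 mM 2DG or an equal volume of water for 24 h before RNA was taken. The medium was DMEM/F12 with 17.5 mM glucose and antibiotics for both. MDA-MB-231 cells grew with 10% fetal bovine serum and 2 mM glutamine. MCF10A cells grew with 5% horse serum, 1 mM glutamine, insulin, human EGF, cholera toxin and hydrocortisone. The line and its medium therefore cannot be told apart in any value given here. The replicates carry the letters A to D and are called biological replicas in the labels, with nothing more said of how they were grown, so the tests measure the spread between these arrays. Each line stands for 1 cell line of its kind.

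2DG enters cells through glucose transporters and is phosphorylated by hexokinase, but the product cannot pass on through glycolysis. It also competes with mannose in the assembly of N-linked sugar chains, so that it disturbs protein folding in the endoplasmic reticulum as well as energy supply. Mammary epithelial cells are held together by E-cadherin junctions and desmosomes and carry keratins, whereas MDA-MB-231 is known as a line of mesenchymal appearance, with vimentin in place of E-cadherin.

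RNA was labelled from the 3' end and hybridised to the Affymetrix U133 Plus 2.0 array, and the values are log2 summaries of probe sets (RMA). A log2 difference of 1 is a doubling, and every difference below is MDA-MB-231 minus MCF10A unless stated otherwise. The 19775 genes with a symbol of their own were each taken at their brightest probe set over the 16 arrays, and tested with limma in a fit of 4 group means over all 16 arrays. A gene was called at an adjusted p under 0.05, with Benjamini-Hochberg adjustment over all genes, and strongly called where the difference was also at least 1 in size. The array medians lay between 6.17 and 6.22, and no replicates held the same values. The median SD of a gene between replicate arrays was 0.0787 in MCF10A under 2DG and 0.0794 in MDA-MB-231 under 2DG. The labels held against some of their markers: E-cadherin and the basal keratins KRT5 and KRT14 were high on the MCF10A arrays, and ZEB1 was high on the MDA-MB-231 arrays. Other epithelial and mesenchymal markers did not all separate the lines in this way. Under 2DG the keratins KRT8 and KRT18 differed by only -0.23 and -0.105. The vimentin gene VIM was high in both lines, and the N-cadherin gene CDH2 was lower in MDA-MB-231, at -5.09. Both control genes that carry probe sets at either end of the transcript, which read RNA integrity, moved with the comparison. The 3' minus 5' difference of the actin control was 0.55 ± 0.0678 (SD, n = 4) in MCF10A under 2DG and 1.03 ± 0.0714 (SD, n = 4) in MDA-MB-231 under 2DG, and on vehicle it was 0.392 ± 0.067 and 0.598 ± 0.331. For the GAPDH control it was 0.17 ± 0.0141 (SD, n = 4) and 0.348 ± 0.0556 (SD, n = 4) under 2DG, and 0.155 ± 0.0129 and 0.215 ± 0.124 on vehicle. The 2DG groups did not overlap in either control, each with an exact two-sided permutation p = 0.0286, the smallest that 4 against 4 arrays allow. Their part in the line differences was not tested.

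Under 2DG, 6069 genes (30.7% of those tested) were called higher in MDA-MB-231 and 5704 (28.8%) lower. On vehicle the counts were 5776 (29.2%) and 5305 (26.8%). Strong calls under 2DG numbered 1718 higher (8.69%) and 1826 lower (9.23%), against 1337 (6.76%) and 1225 (6.19%) on vehicle. The 2DG arrays of the lines did not overlap for 11132 genes (56.3%). The median size of a line difference was 0.245 under 2DG and 0.205 on vehicle, and the 95th percentiles were 2.35 and 1.98. Across genes, which are not independent replicates, the difference under 2DG and that on vehicle had a Pearson r of 0.834. Whether the difference itself changed was tested as an interaction, the line difference under 2DG minus that on vehicle. The interaction was called for 4401 genes with a positive sign (22.3%) and 4664 with a negative sign (23.6%).

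A line difference was said to persist where it was strongly called on both treatments with the same sign, and to reverse where the signs were opposite. It was said to arise where it was strongly called under 2DG but under 0.5 in size on vehicle, with a called interaction, and to vanish in the converse case. By these rules 937 differences persisted with MDA-MB-231 higher (4.74%) and 956 with MDA-MB-231 lower (4.83%), together 53.4% of the strong calls under 2DG and 73.9% of those on vehicle. Differences arose for 333 genes higher in MDA-MB-231 (1.68%) and 398 lower (2.01%). They vanished for 160 genes that were higher on vehicle (0.809%) and 106 that were lower (0.536%). Reversals ended with 5 genes higher under 2DG (0.0253%) and 9 lower (0.0455%). Among the persisting differences 829 widened (4.19%), 469 narrowed (2.37%) and 595 had no called change (3.01%).

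**Figure D1:**
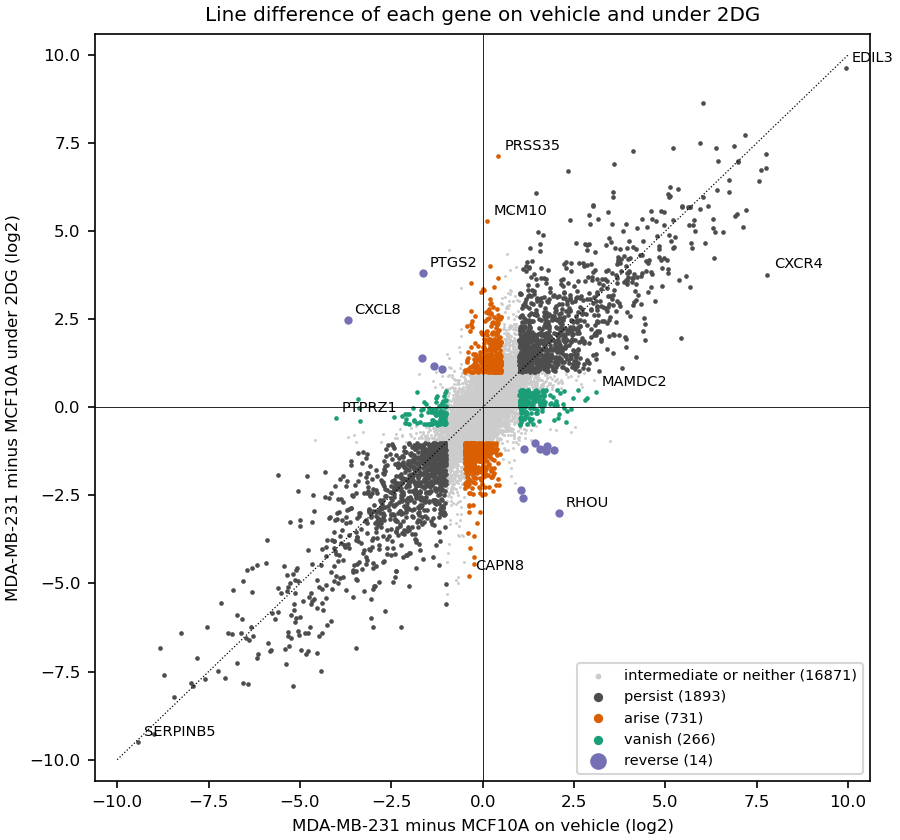
Each point is 1 of 19775 genes, with its log2 line difference on vehicle on the horizontal axis and under 2DG on the vertical axis; colours mark the 4 classes and grey the rest, and the dotted line marks equal differences. The 1893 persisting genes lie in the upper right and lower left quadrants around the dotted line, with 829 called wider and 469 called narrower. The 731 arising genes lie above and below the centre, and the 266 vanishing genes lie to its sides. The 14 reversing genes lie in the upper left and lower right quadrants.

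Most genes of the epithelial programme were lower in MDA-MB-231 on both treatments. Of 30 measured genes of epithelial adhesion and identity, 26 were lower in MDA-MB-231 under 2DG, beside 28.8% of all genes, and none higher, with a median difference of -2.13, against a median of 0.0175 over all genes. On vehicle 23 were lower and 2 higher, beside 26.8% and 29.2% of all genes, with a median of -1.66. CDH1, which encodes E-cadherin, read 13.48, 13.49, 13.57 and 13.53 on the MCF10A arrays under 2DG and 5.19, 5.47, 5.20 and 5.37 on the MDA-MB-231 arrays. The lines were thus far apart, with every MDA-MB-231 array below every MCF10A array, and the difference was -8.21 ± 0.0894 (SE; limma adjusted p = 1.53e-19). On vehicle it was -8.44, and the interaction was not called. ESRP1, a splicing factor that maintains epithelial isoforms, was at 11.99, 12.01, 11.99 and 12.02 in MCF10A and 4.10, 4.73, 4.13 and 4.32 in MDA-MB-231, a difference of -7.68, which was wider than the -7.06 on vehicle. EPCAM, an epithelial adhesion molecule, differed by -2.70 and had widened from -2.07. MAL2, a protein of apical transport, moved the other way, from -5.91 on vehicle to -3.75.

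Desmosome genes were lower in MDA-MB-231 for 10 of 12 members, beside 28.8% of all genes, with a median of -2.54 under 2DG and -2.29 on vehicle. DSC3, a desmosomal cadherin, read 11.99, 11.88, 11.92 and 11.93 in MCF10A and 3.87, 4.28, 3.94 and 4.29 in MDA-MB-231 under 2DG. Its difference of -7.83 was wider than the -6.57 on vehicle, and the interaction was -1.27 ± 0.145 (SE; limma adjusted p = 1.63e-06). PPL, which encodes the plaque protein periplakin, widened from -3.05 to -5.44.

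The basal keratin and squamous list was lower in MDA-MB-231 almost throughout, with 28 of 29 members lower under 2DG and 27 on vehicle. Over all genes 28.8% and 26.8% were lower. The list medians were -2.60 and -2.91. SERPINB5, the serpin known as maspin, had the largest negative difference of all genes at -9.51 ± 0.099 (SE; limma adjusted p = 9.65e-20), with 13.98, 13.97, 13.99 and 13.98 in MCF10A and 4.43, 4.50, 4.74 and 4.23 in MDA-MB-231. CSTA, a cysteine protease inhibitor of stratified epithelia, followed with 13.30, 13.31, 13.31 and 13.34 in MCF10A, 4.07, 4.10, 4.03 and 3.99 in MDA-MB-231 and a difference of -9.27. In neither gene did any arrays of the lines overlap. KRT5 read 13.60, 13.57, 13.58 and 13.62 in MCF10A and 7.24, 7.36, 6.38 and 7.41 in MDA-MB-231 under 2DG, where replicate C was the lowest array, and differed by -6.50. KRT14, its usual partner in basal cells, differed by -7.60 under 2DG and by -8.72 on vehicle. KRT16, a keratin of stressed and proliferating epidermis, widened from -2.46 to -4.97. SERPINB3, a squamous serpin, narrowed from -3.69 to -0.84. Of the further genes with the largest negative differences, S100A14 differed by -7.71, BNC1, a transcription factor of basal keratinocytes, by -7.90, the sodium channel subunit gene SCNN1A by -7.86 and CD109, a surface protein, by -7.82. The 2 other probe sets of SCNN1A differed by -0.065 and -0.055, so its value rests on the probe set taken.

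Of 20 luminal keratins and factors, 11 were lower and 5 higher under 2DG, beside 28.8% and 30.7% of all genes. The interaction was negative for 9 and positive for none, beside 23.6% and 22.3% of all genes. The keratins of simple epithelia in that list differed among themselves. KRT8 differed by -0.23 and KRT18 by -0.10 under 2DG, each called but small, whereas KRT19 was 6.42 higher in MDA-MB-231, narrower than the 7.57 on vehicle. The other probe set of KRT19 differed by 0.09. The call for KRT18 was lost without MDA-MB-231 2DG replicate A, at -0.09, and without replicate C, at -0.0833. CD24, a surface glycoprotein of luminal cells, differed by -6.37.

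Mesenchymal genes did not all go one way. Of 38 measured members, 21 were higher in MDA-MB-231 under 2DG and 12 lower, beside 30.7% and 28.8% of all genes. The median was 0.43, and the corresponding counts on vehicle were 22 and 11, beside 29.2% and 26.8%. The lower members were thus near the share of all genes. ZEB1, a repressor of CDH1, read 7.65, 7.60, 7.73 and 7.45 in MCF10A and 11.41, 11.40, 11.46 and 11.35 in MDA-MB-231 under 2DG. It was higher on every MDA-MB-231 array, by 3.80 ± 0.0557 (SE; limma adjusted p = 3.6e-18). VIM, the vimentin gene, lay near the top of the scale in both lines, at 14.18, 14.15, 14.20 and 14.19 in MCF10A and 14.73, 14.74, 14.79 and 14.79 in MDA-MB-231, and differed by 0.58. SRGN, which encodes the proteoglycan serglycin, had the second largest positive difference of all genes at 8.62, up from 6.02 on vehicle. ANXA6, a membrane-binding annexin, was 4.28 higher. CDH2, which encodes N-cadherin, and TWIST1, a transcription factor of the same programme, ran against the list's name. CDH2 read 10.20, 10.03, 10.35 and 10.31 in MCF10A and 5.14, 5.20, 5.01 and 5.18 in MDA-MB-231, a difference of -5.09, and TWIST1 differed by -6.47. S100A4, a calcium-binding protein of motile cells, was 2.10 higher on vehicle and differed by -0.18 under 2DG.

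**Figure D2:**
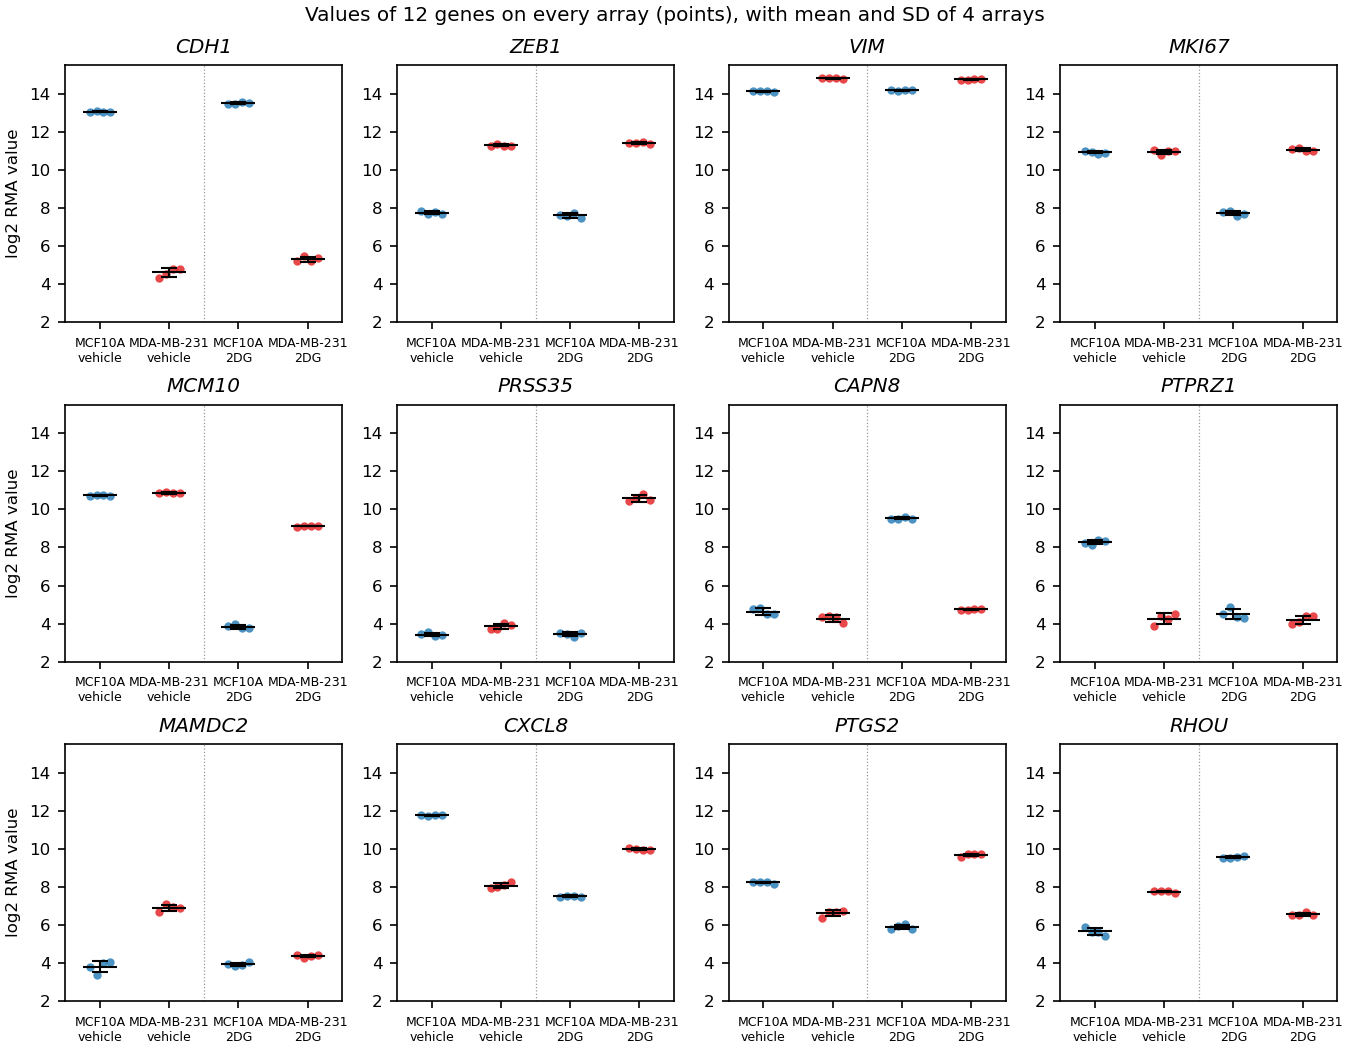
Log2 RMA values of 12 genes on all 16 arrays, grouped by line and treatment; each point is an array, and the bar and whiskers are the mean and SD of 4 arrays. CDH1 and ZEB1 keep their line difference on both treatments, MKI67, MCM10, PRSS35 and CAPN8 gain one under 2DG, PTPRZ1 and MAMDC2 lose theirs, and CXCL8, PTGS2 and RHOU change sign.

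The other genes with the largest positive differences under 2DG also differed on vehicle, apart from PRSS35, which arose under 2DG and is described further on. EDIL3, a secreted ligand of integrins, read 3.54, 3.91, 3.58 and 3.49 in MCF10A and 13.30, 13.23, 13.25 and 13.26 in MDA-MB-231 under 2DG, the largest difference of all at 9.63 ± 0.092 (SE; limma adjusted p = 5.19e-20). Its other probe sets gave smaller differences, of 1.95 and 2.82. SPANXB1, a testis antigen with near-identical copies that this probe set may not tell apart, differed by 7.71. The long noncoding RNA LINC00973 differed by 7.49, the secreted protein gene EPDR1 by 7.40 and the transporter gene SLCO1B3 by 7.35. ANKRD1, a target of the YAP and TAZ coactivators, differed by 7.20, with no called change from vehicle. ADAMTS1, a secreted metalloprotease, widened from 4.12 to 7.28.

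Among matrix genes 22 of 44 were higher in MDA-MB-231 under 2DG and 15 lower, beside 30.7% and 28.8% of all genes. MMP1, an interstitial collagenase, read 5.92, 6.20, 6.27 and 6.24 in MCF10A and 7.47, 7.85, 7.53 and 7.62 in MDA-MB-231 on vehicle. Under 2DG it read 3.80, 3.53, 3.99 and 3.70 and 9.85, 9.76, 9.91 and 9.82. The lines did not overlap on either treatment, and the difference grew from 1.46 to 6.08, an interaction of 4.62 ± 0.141 (SE; limma adjusted p = 3.55e-13). The transmembrane collagen gene COL13A1 differed by 5.96 and the basement membrane collagen gene COL4A6 by -6.42, both without a called interaction. Of 26 integrin and laminin genes 9 were higher, near the share of all genes, and 13 lower. Among them were ITGA2, a collagen receptor subunit, at 1.70, ITGB8 at -4.67 and ITGA4, which narrowed from -3.18 to -1.44.

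Genes of the cell cycle were among those whose line difference appeared under 2DG. Of 50 genes of G2/M and mitosis, 48 were higher in MDA-MB-231 under 2DG, beside 30.7% of all genes, with a median difference of 2.38. On vehicle 40 were higher, beside 29.2% of all genes, with a median of 0.49. The interaction was positive for 48, beside 22.3% of all genes. The rule for an arising difference was met by 21 of the 50, while 1.68% of all genes arose higher. Of 52 genes of DNA replication and S phase, 50 were higher under 2DG and 31 on vehicle, beside 30.7% and 29.2% of all genes. Their medians were 1.56 and 0.25. There the interaction was positive for 46 and 20 arose, beside 22.3% and 1.68% of all genes. By the list means and medians both lines carried less of these genes under 2DG than on vehicle, and MCF10A less than MDA-MB-231. The mean level over the G2/M list was 10.9 in MCF10A on vehicle and 7.67 under 2DG, and 11.4 and 9.98 in MDA-MB-231. The median change with 2DG over that list was -3.22 in MCF10A and -1.33 in MDA-MB-231, and over the S phase list -2.57 and -1.23. Under 2DG the G2/M mean ran from 7.64 to 7.74 over the MCF10A arrays and from 9.96 to 10.0 over the MDA-MB-231 arrays, so no single array set it. In bulk RNA, fewer cycling cells and less RNA per cell cannot be told apart.

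MKI67, the gene of the proliferation antigen Ki-67, read 10.98, 10.94, 10.86 and 10.91 in MCF10A and 11.03, 10.78, 11.01 and 11 in MDA-MB-231 on vehicle, where the arrays overlapped. Under 2DG it read 7.78, 7.86, 7.59 and 7.69 in MCF10A and 11.12, 11.15, 11.01 and 11 in MDA-MB-231. It therefore stayed near its vehicle level in MDA-MB-231 and was lower on all MCF10A arrays, and the line difference went from 0.0325 to 3.34 ± 0.0647 (SE; limma adjusted p = 9.09e-17). BUB1, a kinase of the spindle checkpoint, differed by 0.74 on vehicle and 3.90 under 2DG. The kinetochore genes NUF2 and SPC25 differed by 4.01 and 3.67 under 2DG, against 1.19 and 0.42 on vehicle. Both genes of the list that were lower in MDA-MB-231 under 2DG were HMMR, a hyaluronan receptor that binds spindle microtubules, at -0.81, and CDC25B, a phosphatase that activates mitotic kinases, at -0.55. HMMR had differed by -1.96 on vehicle, and its interaction was positive as in most of the list.

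MCM10, a factor that starts DNA replication, had the largest interaction of the S phase list. It read 10.72, 10.77, 10.77 and 10.73 in MCF10A and 10.85, 10.93, 10.84 and 10.85 in MDA-MB-231 on vehicle, and 3.88, 3.98, 3.76 and 3.76 and 9.10, 9.13, 9.15 and 9.13 under 2DG. With 2DG it fell by 6.90 in MCF10A and fell by 1.74 in MDA-MB-231, and the line difference rose from 0.12 to 5.28 with an interaction of 5.16 ± 0.0643 (SE; limma adjusted p = 4.29e-17). POLE2, a subunit of DNA polymerase epsilon, differed by 1.57 on vehicle and 4.63 under 2DG. DTL, an adaptor of a replication-coupled ubiquitin ligase, had been lower in MDA-MB-231 on vehicle, at -0.59, and was higher under 2DG, at 3.38. RRM2, the regulatory subunit of ribonucleotide reductase, went from -0.33 to 3.54, and CCNE2, an S phase cyclin, from no called difference to 3.37. Of 34 genes of ribosome biogenesis, 25 were higher in MDA-MB-231 under 2DG against 12 on vehicle, beside 30.7% and 29.2% of all genes. The 5 lower ones were POLR1A, POLR1B, RRP1, RRP1B and HEATR1, the last with another probe set called in the opposite direction at 0.34, and 3 were left without MCF10A 2DG replicate A, MCF10A 2DG replicate C or MDA-MB-231 2DG replicate A. LYAR, a nucleolar protein, arose at 1.94.

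**Figure D3:**
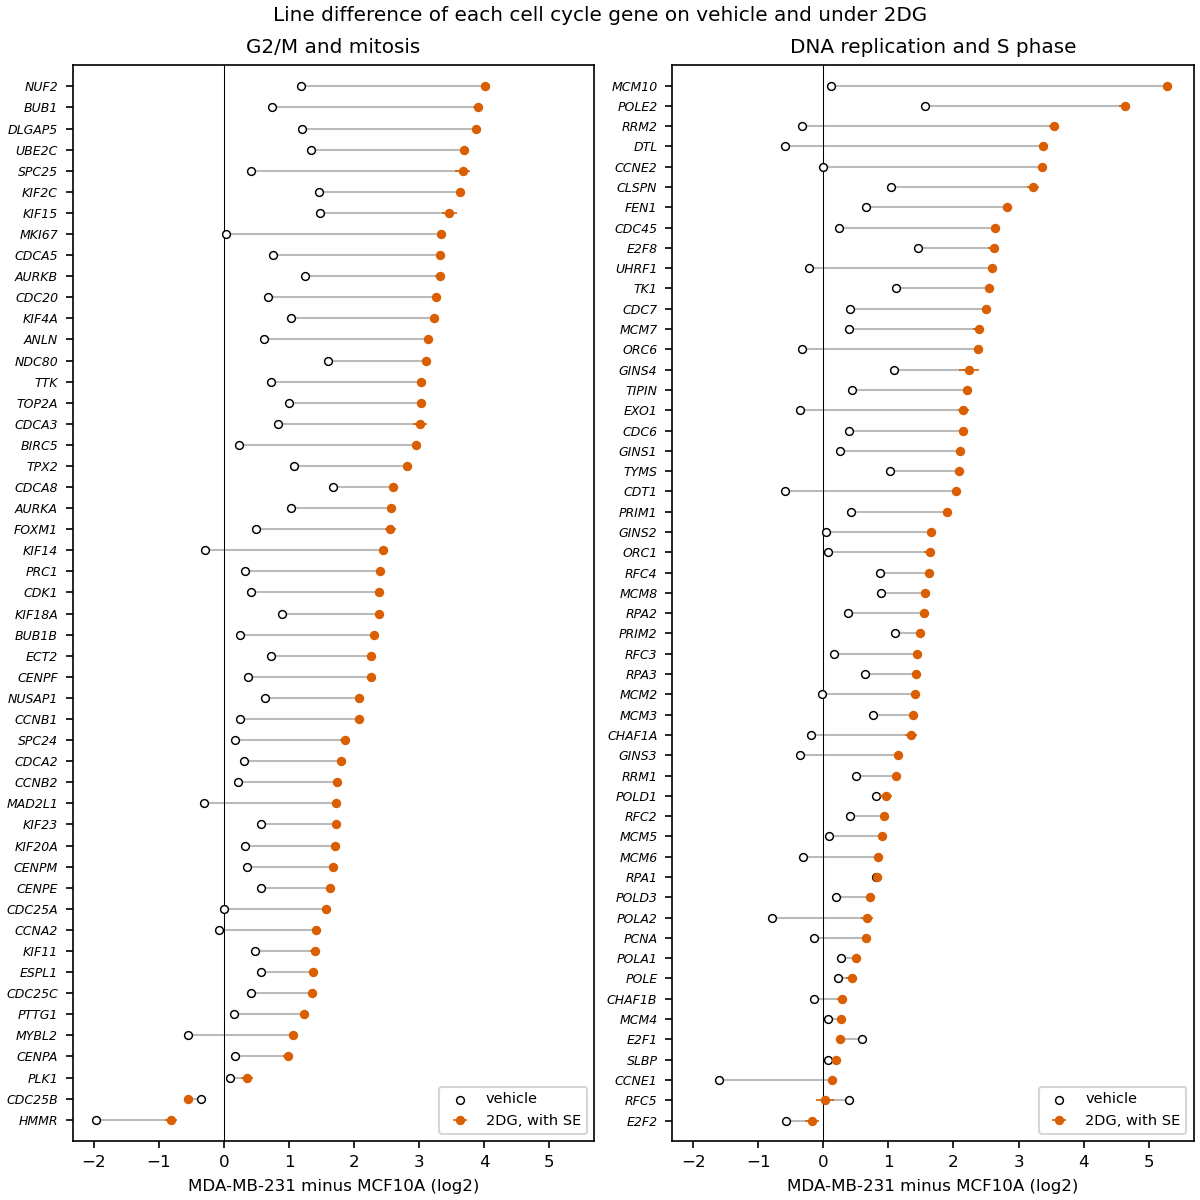
Log2 line difference of each measured gene of the G2/M and S phase lists on vehicle (open circles) and under 2DG (filled circles with SE), sorted by the value under 2DG. The filled circles lie to the right of the open ones for nearly all genes, and HMMR and CDC25B are the only called genes left of zero under 2DG in these 2 lists.

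Promoter sequences were read for what these genes share apart from their values. The windows are those of RefSeq on GRCh38.p14, from 250 bases before to 50 bases after a transcription start, and were found for 42 of the 50 G2/M genes and 44 of the 52 S phase genes. The letters searched on both strands were the E2F core TTCCCGC or TTTGGCG and the cell cycle homology region TTTGAAA, which were chosen after the values were seen. An E2F core stood in 58.6% of 58 windows of S phase genes, 23.1% of 52 windows of G2/M genes and 10.2% of 21490 windows of all genes on the array. The homology region stood in 26.9% of the G2/M windows, 1.72% of the S phase windows and 4.94% of all windows. Over the genes that arose higher in MDA-MB-231 the shares were 17.9% and 6.74% of 386 windows, and over those that arose lower 12.1% and 4.37% of 504 windows. A match describes letters and not a bound site, and none of the matches printed overlap one another. The 4 windows below, written 5' to 3' on the gene's strand with the matches in capitals, are those of the 2 kinetochore genes and of POLE2 and MCM10, and all hold a match. Of the other named genes of these lists, DTL also holds an E2F core, HMMR a homology region and CDC25B an E2F core in 1 of its 4 windows. The windows of BUB1, MKI67 and RRM2 hold neither, and no window was found for CCNE2. SPC25 lies at chr2:168890381-168890680 on the reverse strand and holds an E2F core from base -20 and a homology region from base -3 relative to the start, which is base 0. NUF2 lies at chr1:163321704-163322003 on the forward strand, with the homology region from base 16. POLE2 lies at chr14:49688165-49688464 on the reverse strand, with an E2F core from base -4, and MCM10 at chr10:13161308-13161607 on the forward strand, with an E2F core from base 5.
SPC25: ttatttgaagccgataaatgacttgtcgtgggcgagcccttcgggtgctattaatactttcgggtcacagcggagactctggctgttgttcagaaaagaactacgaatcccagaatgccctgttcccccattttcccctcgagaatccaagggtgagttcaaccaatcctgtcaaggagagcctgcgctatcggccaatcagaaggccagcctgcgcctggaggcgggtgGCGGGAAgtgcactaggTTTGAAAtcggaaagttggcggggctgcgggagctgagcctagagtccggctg
NUF2: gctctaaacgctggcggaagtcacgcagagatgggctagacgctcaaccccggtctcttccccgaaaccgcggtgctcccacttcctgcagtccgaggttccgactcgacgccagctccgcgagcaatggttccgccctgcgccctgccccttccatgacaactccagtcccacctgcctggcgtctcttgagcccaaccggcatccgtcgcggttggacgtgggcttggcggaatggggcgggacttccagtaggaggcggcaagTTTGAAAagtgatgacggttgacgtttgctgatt
POLE2: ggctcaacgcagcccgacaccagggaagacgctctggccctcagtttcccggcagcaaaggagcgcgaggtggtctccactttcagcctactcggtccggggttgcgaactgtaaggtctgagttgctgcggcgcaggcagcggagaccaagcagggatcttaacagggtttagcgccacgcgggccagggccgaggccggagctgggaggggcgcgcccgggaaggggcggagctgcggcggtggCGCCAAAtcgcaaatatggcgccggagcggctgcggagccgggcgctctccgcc
MCM10: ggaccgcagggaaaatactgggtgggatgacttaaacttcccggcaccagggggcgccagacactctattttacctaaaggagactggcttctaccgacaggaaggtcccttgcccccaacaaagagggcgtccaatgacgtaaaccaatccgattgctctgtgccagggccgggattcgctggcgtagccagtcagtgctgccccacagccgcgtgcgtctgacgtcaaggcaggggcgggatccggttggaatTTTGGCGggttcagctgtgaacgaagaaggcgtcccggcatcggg

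Of the 333 genes whose difference arose with MDA-MB-231 higher, 230 changed more in MCF10A than in MDA-MB-231 with 2DG. Their median change with 2DG was -1.05 in MCF10A and 0.015 in MDA-MB-231. For the 398 that arose with MDA-MB-231 lower, the larger change was in MCF10A for 270, and the medians were 0.98 in MCF10A and -0.22 in MDA-MB-231. Most of these genes were called as changed in both lines. Of the 333, 177 were called in both with the same sign and 83 with opposite signs. A further 36 were called in MCF10A alone and 37 in MDA-MB-231 alone. Of the 398, 123 were called in both with the same sign and 148 with opposite signs. A further 103 were called in MCF10A alone and 24 in MDA-MB-231 alone. The larger change was thus more often in MCF10A by the counts of 230 and 270, which were not tested. The converse was seen in PRSS35, a gene of the serine protease family. It read 3.43, 3.56, 3.33 and 3.39 in MCF10A and 3.72, 3.74, 4.02 and 3.92 in MDA-MB-231 on vehicle, and 3.52, 3.47, 3.29 and 3.53 and 10.43, 10.62, 10.79 and 10.47 under 2DG. Only the 2DG arrays of MDA-MB-231 were high, and the difference of 7.12 ± 0.0868 (SE; limma adjusted p = 5.55e-19) followed a rise of 6.73 in that line. TMEM171, a membrane protein gene, arose at 4.0, and it rose by 3.45 in MDA-MB-231 with a change of -0.35 in MCF10A. NT5E, a surface enzyme that makes adenosine, arose at 2.57, and EREG, a ligand of the EGF receptor, at 2.12.

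The gene with the largest difference that arose with MDA-MB-231 lower was CAPN8, a calpain protease. It read 4.75, 4.80, 4.50 and 4.49 in MCF10A and 4.33, 4.38, 4.35 and 4.01 in MDA-MB-231 on vehicle. Under 2DG it read 9.49, 9.52, 9.61 and 9.51 in MCF10A and 4.73, 4.69, 4.77 and 4.79 in MDA-MB-231. The MCF10A arrays under 2DG stood above the arrays of the other 3 groups, and the difference was -4.79 ± 0.0819 (SE; limma adjusted p = 2.03e-17). GPX2, a glutathione peroxidase of epithelia, went from -0.25 to -4.25, and it rose by 3.79 in MCF10A. CFAP53, a gene of cilia, arose at -3.99, the zinc finger gene ZSCAN31 at -3.58 and LINC02806, a long noncoding RNA, at -3.65. KLRC3, a receptor gene of lymphocytes with near-identical neighbours that share sequence, arose at -4.43, and the member of the family that gave the signal is uncertain.

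**Figure D4:**
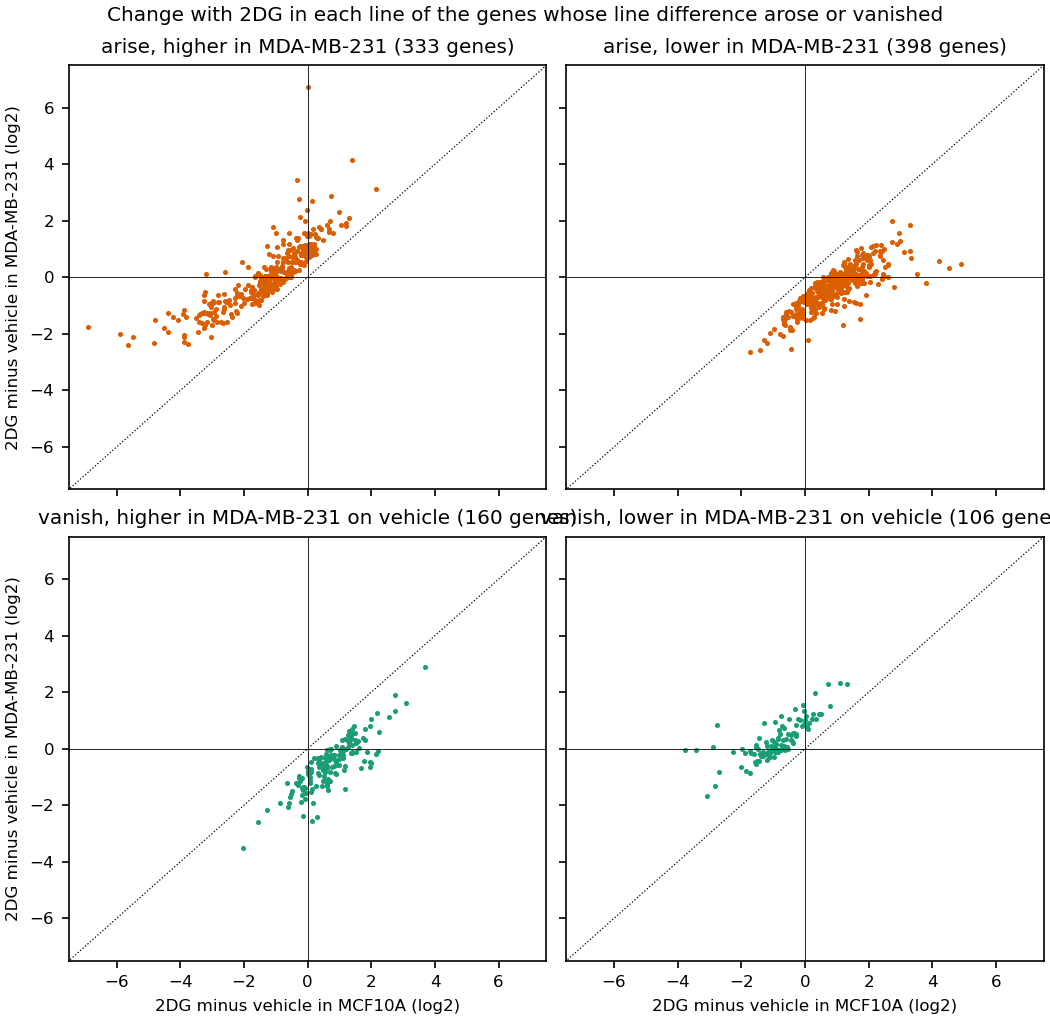
Each point is a gene whose line difference arose (top) or vanished (bottom), with its log2 change from vehicle to 2DG in MCF10A on the horizontal axis and in MDA-MB-231 on the vertical axis; the dotted line marks equal changes. The 333 genes that arose higher and the 398 that arose lower spread further along the MCF10A axis, with PRSS35 the point at a change of 6.73 in MDA-MB-231.

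Fewer differences were lost. The 160 that vanished with MDA-MB-231 higher on vehicle had median changes with 2DG of 0.64 in MCF10A and -0.56 in MDA-MB-231, and 82 of them changed more in MCF10A. The 106 that vanished with MDA-MB-231 lower had medians of -0.87 and 0.11, and 73 changed more in MCF10A. PTPRZ1, a receptor phosphatase, read 8.23, 8.15, 8.40 and 8.32 in MCF10A and 3.86, 4.42, 4.22 and 4.50 in MDA-MB-231 on vehicle, a difference of -4.03. Under 2DG the arrays read 4.53, 4.87, 4.35 and 4.32 and 3.96, 4.11, 4.38 and 4.38, which overlap, and the difference of -0.31 was not called. It was called at -0.38 without MCF10A 2DG replicate D and at -0.31 without MDA-MB-231 vehicle replicate A. HAS3, a hyaluronan synthase, went from -3.40 to -0.0225 in the same way and fell by 3.41 in MCF10A. Without MCF10A 2DG replicate C its difference under 2DG was 0.0267. MMP10, the protease stromelysin 2, went from -3.41 to 0.23, which was called at 0.34 without MCF10A 2DG replicate B. The same loss was seen in EOMES, a transcription factor, from -3.35 to -0.38, and in SPHK1, a sphingosine kinase, from -1.79 to 0.43.

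MAMDC2, a secreted matrix protein, lost a difference in the other direction. It read 3.78, 3.40, 4.01 and 4.08 in MCF10A and 6.71, 7.09, 6.96 and 6.87 in MDA-MB-231 on vehicle, then 3.93, 3.87, 3.92 and 4.06 and 4.45, 4.28, 4.35 and 4.40 under 2DG. The lines still did not overlap, but the difference was down from 3.09 to 0.42, with an interaction of -2.67 ± 0.165 (SE; limma adjusted p = 1.14e-09). HCFC1R1, which encodes a regulator of a cell cycle cofactor, went from 2.86 to 0.25, the phosphatase gene PPM1E from 2.81 to 0.20, the GMP reductase gene GMPR from 2.43 to -0.05, and the antisense RNA LOXL1-AS1 from 2.27 to -0.41. Another probe set of PPM1E still differed by 2.28 under 2DG, so its loss rests on the probe set taken.

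The 14 reversals included inflammatory genes. CXCL8, which encodes the neutrophil chemokine interleukin-8, read 11.79, 11.73, 11.77 and 11.76 in MCF10A and 7.95, 7.98, 8.08 and 8.28 in MDA-MB-231 on vehicle. Under 2DG it read 7.48, 7.54, 7.55 and 7.45 in MCF10A and 10.06, 9.99, 9.95 and 9.93 in MDA-MB-231. MCF10A was the higher line on vehicle and MDA-MB-231 the higher line under 2DG, with no overlap on either. The difference went from -3.69 to 2.48, an interaction of 6.17 ± 0.0834 (SE; limma adjusted p = 7.45e-17), as CXCL8 fell by 4.26 in MCF10A and rose by 1.91 in MDA-MB-231. PTGS2, the inducible cyclooxygenase that makes prostaglandins, read 8.26, 8.24, 8.28 and 8.18 in MCF10A and 6.37, 6.70, 6.67 and 6.74 in MDA-MB-231 on vehicle, and 5.81, 5.94, 6.05 and 5.78 and 9.60, 9.74, 9.72 and 9.71 under 2DG. It too crossed over, from -1.62 to 3.80. The 3 other genes that ended higher in MDA-MB-231 were PLA2G4A, a phospholipase that releases arachidonic acid for cyclooxygenase, SERPINE2, a secreted protease inhibitor, and AKNAD1.

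RHOU, which encodes a small GTPase, crossed in the opposite direction. Its vehicle arrays read 5.92, 5.64, 5.66 and 5.44 in MCF10A and 7.79, 7.77, 7.77 and 7.71 in MDA-MB-231, and its 2DG arrays 9.52, 9.54, 9.59 and 9.64 and 6.55, 6.51, 6.66 and 6.52. The difference went from 2.10 to -3.01, with a change of 3.91 in MCF10A and of -1.20 in MDA-MB-231. MAOA, which encodes a monoamine oxidase and is induced by glucocorticoids in many cells, went from 1.94 to -1.23. The histone genes H4C8 and H2AC6 went from 1.10 to -2.58 and from 1.05 to -2.34. Their near-identical copies in the histone clusters make the source gene uncertain.

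The promoter windows of the CXCL8 and PTGS2 genes are shown because both reversed together. The search was for the AP-1 site TGANTCA, the E-box CACGTG, the cyclic AMP element core TGACG and the TATA box TATAAA on both strands. CXCL8 lies at chr4:73740319-73740618 on the forward strand and holds a TATA box from base -31, an AP-1 site from base -137 and a cyclic AMP element core from base -179. PTGS2 lies at chr1:186680374-186680673 on the reverse strand and holds a TATA box from base -32 and cyclic AMP element cores from bases -58 and 24. An AP-1 site stood in 6.24% of all windows, a TATA box in 8.85%, a cyclic AMP element core in 28% and an E-box in 8.36%. The AP-1 share was 6.74% and 6.94% over the genes that arose higher and lower, and 8.86% and 8.87% over those that vanished from higher and lower.
CXCL8: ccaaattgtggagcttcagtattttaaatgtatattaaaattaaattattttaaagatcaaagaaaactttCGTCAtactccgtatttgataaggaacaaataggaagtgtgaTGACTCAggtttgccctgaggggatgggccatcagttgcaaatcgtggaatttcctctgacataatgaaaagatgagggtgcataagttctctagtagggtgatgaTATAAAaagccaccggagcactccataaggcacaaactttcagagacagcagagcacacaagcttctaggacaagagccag
PTGS2: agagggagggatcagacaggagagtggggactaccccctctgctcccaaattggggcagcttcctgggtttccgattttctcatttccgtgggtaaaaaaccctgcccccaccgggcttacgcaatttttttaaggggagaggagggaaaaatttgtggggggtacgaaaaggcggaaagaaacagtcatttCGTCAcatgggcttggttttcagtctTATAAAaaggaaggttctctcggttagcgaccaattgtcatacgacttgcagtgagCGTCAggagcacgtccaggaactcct

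Over the whole list of chemokines, cytokines and NF-kB genes, 10 of 34 were higher in MDA-MB-231 under 2DG and 12 lower, near the 30.7% and 28.8% of all genes. On vehicle 6 were higher and 21 lower, beside 29.2% and 26.8% of all genes. The interaction was positive for 17, beside 22.3% of all genes, and negative for 3, beside 23.6%, which were IL11, RELB and TNFSF10. CXCL1, another neutrophil chemokine, read 7.95, 8.17, 8.73 and 8.59 in MCF10A and 6.56, 6.53, 6.04 and 6.57 in MDA-MB-231 under 2DG, with replicate C the lowest of the latter. It stayed lower in MDA-MB-231 but narrowed from -5.59 to -1.94. IL11, a cytokine of the interleukin-6 family, stayed higher at 4.11. TNFSF10, the death ligand TRAIL, widened from -1.35 to -4.26. IL1A, which encodes interleukin-1 alpha, differed by -5.56 at its brightest probe set, which is of a kind that can match several transcripts, and by 0.105 at its other probe set.

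Other persisting differences widened or narrowed by large amounts. CTH, an enzyme that makes cysteine, read 7.15, 6.89, 7.07 and 7.12 in MCF10A and 9.39, 9.41, 9.42 and 9.39 in MDA-MB-231 on vehicle, and 5.53, 5.70, 5.68 and 5.62 and 12.34, 12.34, 12.38 and 12.24 under 2DG. The MDA-MB-231 arrays were the higher ones on both treatments, and the difference grew from 2.35 to 6.69. CACNA2D3, a calcium channel subunit, grew from -1.01 to -5.58. CXCR4, the receptor of the chemokine CXCL12, read 7.44, 7.25, 7.33 and 7.43 in MCF10A and 11.13, 11.11, 11.15 and 11.13 in MDA-MB-231 under 2DG, and its difference narrowed from 7.79 to 3.77. RGS7, a regulator of G protein signalling, narrowed from 5.42 to 1.97 and IGFL1, a secreted factor, from -4.80 to -1.96.

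Genes of glucose uptake and glycolysis were split, with 12 of 31 higher and 14 lower in MDA-MB-231 under 2DG, beside 30.7% and 28.8% of all genes. The median was -0.0425 on both treatments. PDK4, a kinase that holds back pyruvate dehydrogenase, read 12.23, 12.21, 12.25 and 12.31 in MCF10A and 7.0, 6.95, 6.97 and 6.94 in MDA-MB-231 under 2DG. It was lower on every MDA-MB-231 array, with a difference of -5.29 ± 0.0528 (SE; limma adjusted p = 6.87e-20) against -0.97 on vehicle. HK2, the hexokinase that phosphorylates glucose and 2DG, read 8.33, 8.24, 8.40 and 8.22 in MCF10A and 10.69, 10.80, 10.90 and 10.83 in MDA-MB-231, a difference of 2.51, but its 2 other probe sets gave -0.35 and -0.24, so its direction rests on the probe set taken. SLC2A1, the glucose transporter GLUT1, differed by 0.70, and by -0.0875 at its other probe set. The glucose-sensing arrestin genes TXNIP and ARRDC4 differed from each other. TXNIP went from 0.83 on vehicle to 0.12, and ARRDC4 from -1.34 to -2.69. ENO2, a glycolytic enolase, persisted at 3.84. In oxidative phosphorylation 14 of 50 genes were higher, near the share of all genes, and 27 lower. ATP5MC1, an ATP synthase subunit, differed by 1.23 and NDUFB10, a complex I subunit, by -1.10.

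Genes of the unfolded protein response in the endoplasmic reticulum shifted towards MDA-MB-231. On vehicle 8 of 36 were higher and 17 lower, beside 29.2% and 26.8% of all genes. Under 2DG 17 were higher and 12 lower, beside 30.7% and 28.8%. The interaction was positive for 22 and negative for 6, beside 22.3% and 23.6% over all genes. The median change with 2DG over the list was 0.60 in MCF10A and 1.00 in MDA-MB-231. HSPA5, the main chaperone of the endoplasmic reticulum, read 13.62, 13.49, 13.51 and 13.47 in MCF10A and 13.41, 13.45, 13.36 and 13.34 in MDA-MB-231 on vehicle, and 14.34, 14.34, 14.34 and 14.30 and 14.75, 14.75, 14.81 and 14.81 under 2DG. The line difference went from -0.13 to 0.45, with all MDA-MB-231 arrays above the MCF10A arrays under 2DG. SDF2L1, a cofactor of that chaperone, went from -0.80 to 0.55. CRELD2, another secretory pathway chaperone, stayed lower at -1.04, and WFS1, a membrane protein of the same compartment, stayed higher at 1.88.

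The integrated stress response is the pathway in which ATF4 raises genes of amino acid supply. Of its 39 genes, 13 were higher and 21 lower in MDA-MB-231 under 2DG, beside 30.7% and 28.8% of all genes. On vehicle 16 were higher and 19 lower, beside 29.2% and 26.8%. DDIT3, the death-promoting factor CHOP, read 7.72, 7.76, 7.77 and 7.86 in MCF10A and 8.82, 8.81, 8.87 and 8.80 in MDA-MB-231 on vehicle, and 10.89, 10.87, 10.91 and 10.85 and 10.43, 10.42, 10.40 and 10.55 under 2DG. Its difference of 1.05 on vehicle became -0.43. ALDH1L2, a mitochondrial folate enzyme, differed by -7.11 and STC2, a secreted glycoprotein, by -5.08, against -2.94 on vehicle. TRIB3, a pseudokinase target of CHOP, differed by -1.24, and PPP1R15A, which restores translation, by 2.70.

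Glucocorticoid-induced genes were lower in MDA-MB-231 for 17 of 23 members under 2DG and 16 on vehicle, beside 28.8% and 26.8% of all genes. The 5 higher ones were CRISPLD2, ERRFI1, SLC19A2, BCL6 and SGK1. Only MCF10A received hydrocortisone. ZBTB16, a transcription factor strongly induced by glucocorticoids, read 5.30, 5.33, 5.40 and 5.58 in MCF10A and 4.22, 4.63, 4.26 and 4.44 in MDA-MB-231 on vehicle, and 9.48, 9.57, 9.44 and 9.42 and 4.43, 4.51, 4.44 and 4.45 under 2DG. Its difference widened from -1.01 to -5.02, as it rose by 4.08 in MCF10A. CRISPLD2, a secreted protein, went from 2.25 to 3.09.

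Feedback and immediate-early genes of the MAP kinase pathway were higher in MDA-MB-231 for 22 of 33 members under 2DG and lower for 10, beside 30.7% and 28.8% of all genes, with 22 positive interactions and 7 negative ones, beside 22.3% and 23.6%. SPRY4, a feedback inhibitor of the pathway, read 7.02, 6.98, 6.95 and 6.91 in MCF10A and 10.88, 10.94, 10.87 and 10.97 in MDA-MB-231 under 2DG, and its difference widened from 1.27 to 3.95. EGR3, an early growth response factor, went from -1.02 to -3.03. NRG1, a ligand of ERBB receptors, persisted at 5.58. Targets of YAP and TAZ were higher for 20 of 29 members, among them CCN2, a matricellular growth factor, at 3.48. They were lower for 8, near the share of all genes, among them VGLL3, at -2.24.

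NRF2 targets and antioxidant genes were lower for 21 of 32 members and higher for 11, against 17 and 12 on vehicle. Over all genes 28.8% were lower and 30.7% higher under 2DG, and each 2DG count of this paragraph stands beside these shares. The vehicle shares were 26.8% and 29.2%. ABCC3, an export pump, differed by -4.85, and GPX3, a secreted glutathione peroxidase, by 3.20 in the other direction. Among 24 aldehyde dehydrogenase and xenobiotic genes 14 were lower, with ALDH1A3, which makes retinoic acid, at -6.69 and ALDH3A1 at -3.03. The other probe set of ALDH1A3 was called in the opposite direction, at 0.65. The 5 higher genes were ALDH2, CYP1A1, CYP24A1, GSTM2 and GSTM3, the last a glutathione transferase at 5.70. Targets of p53 were lower for 18 of 27 members and higher for 9, with SPATA18, which acts in mitochondrial quality control, at -6.41 and PMAIP1, the death gene NOXA, at 2.13.

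Of 24 genes of cholesterol synthesis and sterol transport 17 were lower and 1, MYLIP, higher under 2DG, beside 28.8% and 30.7% of all genes. ABCG1, a sterol exporter, read 10.18, 10.20, 10.13 and 10.29 in MCF10A and 5.03, 5.05, 5.41 and 5.31 in MDA-MB-231 under 2DG. The MCF10A arrays were the high ones, and the difference went from -0.68 on vehicle to -5.0. Among 22 genes of fatty acid synthesis and desaturation 13 were lower and 6 higher, the latter near the share of all genes. LPIN1, a phosphatidate phosphatase, arose at -1.54 and ACSL5, an acyl-CoA synthetase, persisted at 3.54.

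In the TGF-beta and ID list 11 of 30 genes were higher and 15 lower. Over all genes 30.7% were higher and 28.8% lower under 2DG, and each count of this paragraph stands beside these shares. BMP4, a ligand of the superfamily, was at 4.83, TGFBI, a matrix protein induced by TGF-beta, at -4.91, and ID2, an inhibitor of basic helix-loop-helix factors, narrowed from -3.27 to -1.26. Of 33 Notch and Wnt genes 15 were higher and 10 lower, the latter near the share of all genes. The Wnt antagonist SFRP1 differed by -7.49 and the ligand WNT5B by 4.05, and the receptor FZD7 narrowed from 4.43 to 1.92. Interferon-stimulated genes divided evenly, 19 of 40 higher and 19 lower, with TRIM22 at -4.90, IFIT2 at 3.15 and RSAD2, which arose, at -1.63. Of 26 antigen presentation genes 12 were higher and 6 lower, and HLA-DMA, a class II chaperone, was at 2.61. Cancer/testis antigens were higher for 12 of 21 members, while MAGED1 differed by -1.97 and SSX1 narrowed from 5.38 to 3.61.

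Some of these counts rested on probe sets of the kind that can match several transcripts. Without such probe sets 17098 genes were left. Of these, 4732 were higher in MDA-MB-231 under 2DG and 4671 lower, and 3255 had a positive interaction. Each list count without such probe sets stands beside these. The cell cycle lists then had 36 of 40 G2/M genes and 37 of 41 S phase genes higher in MDA-MB-231 under 2DG, and 22 of 25 epithelial genes were lower. In the list of chemokines and NF-kB genes 9 of 26 were higher and 6 lower, with 11 positive interactions. In the ATF4 list 12 of 28 were lower, in the glucocorticoid list 9 of 17, in the TGF-beta list 8 of 23 and in the antigen presentation list 3 of 19. In the glycolysis list 5 of 19 were higher, in the Notch and Wnt list 8 of 23, in the fatty acid list 2 of 15 and in the cancer/testis list 6 of 16. In the luminal list 5 of 12 were lower. Of the markers of other cell types, 2 of 11 leukocyte markers were higher, and of 8 fibroblast markers 1 was lower and 0 higher. Several values of single genes also rest on the probe set taken, since another one differed by -0.185 for GPX2, 0.0475 for CRISPLD2 and 0.965 for GSTM3. Another probe set likewise differed by -0.06 for LINC02806, 0.12 for BUB1, -0.0175 for ITGA4 and 0.56 for EREG. For ANXA6 it was 0.825, for ABCC3 -0.62 and for CDH1 -3.41, and those of COL13A1 differed by 1.80 and 2.64. These genes are examples. Of the 81 genes given with their line difference that have other probe sets, 5 have one of opposite sign under 2DG. The naming rule also gave 29 genes that are not given so. CD44, ESR1, AP1M2, HEG1 and ITGB4 are among these and have such a probe set, so the 5 do not show how often probe sets disagree. The other probe sets of RGS7 differed by 0.10 and 0.29, those of WNT5B by 0.11 and 0.41 and those of ALDH1L2 by -1.39 and -1.35. With the mean of all probe sets of a gene 5 YAP and TAZ targets were lower, beside 5619 of all 19775 genes.

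Markers of other cell types were read as a check on the cultures. Under 2DG 4 of 12 leukocyte markers were higher in MDA-MB-231, PTPRC, CD3E, LYZ and LAPTM5, and 2 were lower, CD14 and CSF1R, beside 30.7% and 28.8% of all genes. Without MDA-MB-231 2DG replicate B or C the higher ones were 2. The mean over the list ran from 6.16 to 6.24 on the MCF10A arrays and from 6.09 to 6.19 on the MDA-MB-231 arrays. CD14 differed by -3.05 and LAPTM5 by 2.03. Of 11 endothelial markers 5 were higher, PECAM1, KDR, TIE1, ESAM and ROBO4, with list means from 5.67 to 5.84 in MCF10A and from 6.69 to 6.76 in MDA-MB-231. CDH5, CLDN5, VWF, TEK, EMCN and ERG of that list were not called. Of 11 fibroblast markers 4 were lower, COL1A1, DCN, FAP and POSTN, and 1 higher, COL3A1, with list means from 6.51 to 6.59 in MCF10A and from 5.71 to 5.81 in MDA-MB-231. An array value has no true zero, so no marker can be placed at none.

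**Figure D5:**
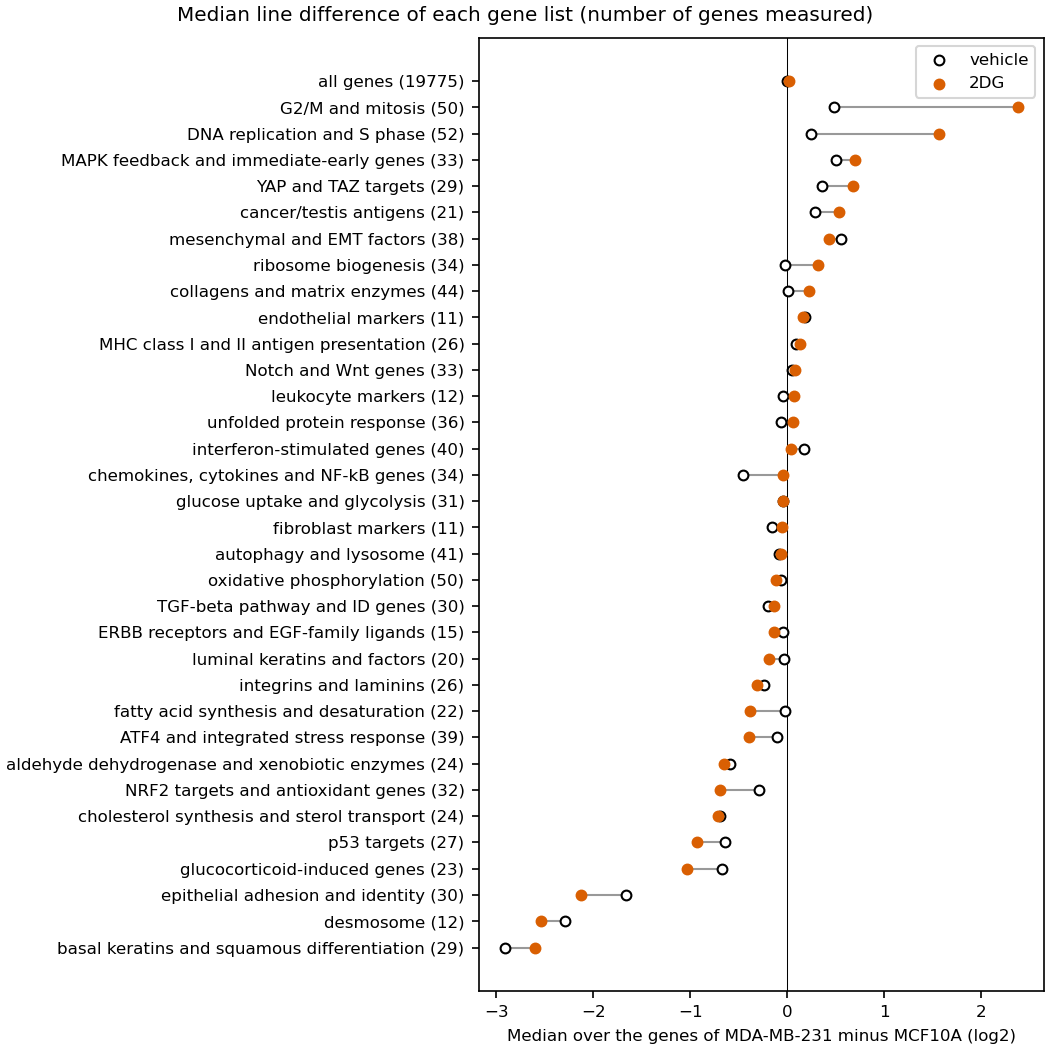
Median log2 line difference over the measured genes of each of 33 lists on vehicle (open circles) and under 2DG (filled circles), with the number of genes measured in brackets and all genes at the top. The G2/M and S phase lists have the longest shifts, from 0.49 to 2.38 and from 0.25 to 1.56, and the epithelial, desmosome and basal lists lie furthest below zero on both treatments.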

How the data were processed

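RNA of 2 human breast lines on 2DG or vehicle was measured on 16 Affymetrix U133 Plus 2.0 arrays, 4 a group. The authors' deposited values are log2 expression summaries per probe set, made with RMA per the submitters' processing notes; the version and whether all arrays were normalized together are not given in the sources used here. Probe sets were named through the platform annotation: 41091 of 54675 carried 1 gene symbol, 1801 carried several and were left out, as were those without a symbol and control probe sets. Each of 19775 genes was taken at its brightest probe set.

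Line differences and interactions came from limma (version 3.58.1, run under R 4.3.3) through lmFit and eBayes (4 group means over 16 arrays, 12 residual degrees of freedom, no block), two-sided, with Benjamini-Hochberg adjustment over all genes, and the script was tested on simulated data. Because 4 arrays a group and unknown molecule counts limit precision, no interval from counts is given. The members and lists were chosen with earlier results of these data known. Genes are named by a rule (the largest differences and interactions of each class and list, and a fixed set), which gave 164 genes; 135 of these are given with their line difference. Of the other 29, a few are named only within counts, and several turned direction with the choice of probe set, among them CD44, ESR1 and TSC22D3. Genes outside the rule are named where a count of 5 or fewer is given, or as markers, and were chosen after their values were seen. Replicate letters did not pair arrays: the correlation of same-lettered deviations ran from -0.0992 to 0.0877 over 24 pairs.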

Additional observations from a re-analysis of the deposited data

Results flagged for a closer look

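This check covered 138 genes and left out those named above only within counts. Some of those left out, among them HEATR1, COL1A1, COL3A1 and MYLIP, also had a called interaction. For 116 of the 138 the line difference under 2DG differed from that on vehicle by the interaction test (limma adjusted p under 0.05). The values here are the interactions, log2 difference under 2DG minus that on vehicle. In the cell cycle genes they were 5.16 for MCM10, 3.98 for DTL, 3.87 for RRM2, 3.37 for CCNE2, 3.31 for MKI67, 3.25 for SPC25, 3.16 for BUB1, 3.06 for POLE2, 2.83 for NUF2 and 1.15 for HMMR. In the other genes whose difference arose they were 6.70 for PRSS35, -4.42 for CAPN8, -4.18 for KLRC3, -4.0 for GPX2, 3.80 for TMEM171, -3.63 for CFAP53, -3.42 for LINC02806, -3.18 for ZSCAN31, 2.26 for NT5E, 2.17 for EREG, 1.73 for LYAR, -1.64 for RSAD2, -1.54 for LPIN1 and 0.73 for ATP5MC1. Where the difference vanished they were 3.71 for PTPRZ1, 3.63 for MMP10, 3.38 for HAS3, 2.97 for EOMES, -2.68 for LOXL1-AS1, -2.67 for MAMDC2, -2.60 for HCFC1R1, -2.60 for PPM1E, -2.48 for GMPR, -2.27 for S100A4, 2.22 for SPHK1 and -1.48 for DDIT3. Among the reversals they were 6.17 for CXCL8, 5.42 for PTGS2, -5.11 for RHOU, -3.68 for H4C8, -3.40 for H2AC6, -3.17 for MAOA, 3.07 for PLA2G4A, 2.50 for SERPINE2 and 2.17 for AKNAD1. Persisting differences that widened had 4.62 for MMP1, -4.57 for CACNA2D3, 4.35 for CTH, -4.0 for ZBTB16, 3.16 for ADAMTS1, -2.91 for TNFSF10, 2.68 for SPRY4, 2.60 for SRGN, -2.51 for KRT16, -2.40 for PPL, -2.14 for STC2, -2.0 for EGR3, -1.93 for ALDH3A1, -1.63 for SPATA18, 1.53 for LINC00973, -1.46 for TRIM22, -1.46 for TWIST1, -1.44 for SCNN1A, -1.35 for ARRDC4, -1.27 for DSC3, -1.14 for ITGB8, -1.05 for CD24, 0.97 for SLCO1B3, -0.94 for ABCC3, -0.93 for ALDH1L2, 0.87 for PMAIP1, 0.84 for CRISPLD2, -0.81 for ALDH1A3, -0.76 for MAGED1, 0.72 for PPP1R15A, 0.70 for NRG1, -0.63 for EPCAM, -0.62 for ESRP1, -0.61 for CDH2, 0.58 for ANXA6, 0.54 for EPDR1, -0.54 for CD14, 0.53 for SPANXB1, 0.47 for IFIT2, -0.28 for CSTA and 0.26 for ZEB1. Those that narrowed had -4.02 for CXCR4, 3.65 for CXCL1, -3.45 for RGS7, 2.84 for IGFL1, -2.52 for FZD7, 2.15 for MAL2, 2.01 for ID2, -1.76 for SSX1, 1.74 for ITGA4, 1.59 for IL1A, -1.43 for LAPTM5, -1.15 for KRT19, 1.12 for KRT14, -0.81 for WFS1, 0.45 for VGLL3, 0.45 for CRELD2, -0.43 for BMP4, -0.41 for IL11 and 0.24 for TGFBI. The remaining genes, whose differences passed the size threshold on at most 1 treatment or lay between the 2 thresholds, had -4.32 for ABCG1, -4.32 for PDK4, 2.86 for SERPINB3, 1.66 for HK2, 1.34 for SDF2L1, 0.80 for ITGA2, -0.71 for TXNIP, -0.62 for KRT8, 0.58 for HSPA5, -0.50 for SLC2A1 and -0.32 for NDUFB10.

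Single arrays stood apart from the other 3 of their group in 34 of 552 groups of 4 examined (6.16%), by Dixon's ratio at its critical value for 4, which chance gives in about 5%. In MDA-MB-231 vehicle replicate B the array value was 4.41 for ABCG1, 11.24 for ANKRD1, 12.07 for KRT8, 10.93 for MCM10, 10.78 for MKI67, 9.50 for WNT5B, 11.37 for ZEB1 and 6.37 for ZSCAN31. In MDA-MB-231 vehicle replicate C the array value was 10.56 for FZD7, 6.03 for ID2 and 7.48 for VGLL3. In MDA-MB-231 vehicle replicate D the array value was 11.91 for ATP5MC1, 4.01 for CAPN8 and 14.16 for SRGN. In MCF10A 2DG replicate C the array value was 11.34 for KRT8. In MCF10A 2DG replicate D the array value was 12.46 for ARRDC4, 8.61 for CFAP53, 5.48 for HLA-DMA, 14.30 for HSPA5, 7.45 for IFIT2, 10.44 for LYAR and 12.78 for SFRP1. In MDA-MB-231 2DG replicate A the array value was 6.81 for PPM1E and 10.25 for TMEM171. In MDA-MB-231 2DG replicate C the array value was 6.04 for CXCL1, 4.29 for EGR3, 9.86 for GSTM3, 6.38 for KRT5 and 6.11 for S100A14. In MDA-MB-231 2DG replicate D the array value was 7.88 for GMPR and 4.93 for ZSCAN31. In MCF10A vehicle replicate B the array value was 6.74 for PDK4. In MCF10A vehicle replicate C the array value was 10.75 for DSC3. In MCF10A vehicle replicate D the array value was 9.61 for SPHK1. In several of these groups all 4 arrays lay close together, and the 3 other arrays of HSPA5 in MCF10A under 2DG all read 14.34.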

How the results depend on the processing

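The counts were recomputed under 27 other settings: another probe set rule, variance model, filter, scaling or threshold, fewer arrays, each array left out in turn, and the replicate letter as a block. With the replicate block 6056 genes were higher and 5681 lower under 2DG, and the block changed no call on which the text rests. With the mean of all probe sets of a gene, 101 differences vanished from higher, and 3 reversals ended higher and 4 lower. With their median, 4 reversals ended lower. With a strong call at 1.5, 512 and 586 differences persisted higher and lower, 117 and 145 arose, 46 and 27 vanished, and 2 and 1 reversed. With a difference counted as gone under 0.3, 176 and 235 arose and 91 and 58 vanished. These thresholds select fewer genes by construction. Leaving out any 1 array moved no count over all genes or class count by over 1.5 times. HK2 reversed to -0.25 with the median of its probe sets, IL1A to 0.105 and SLC2A1 to -0.0875 without probe sets that can match several transcripts, and HAS3, with no called difference, ran from -0.0833 to 0.0267 as each array was left out; the cause was not tested. The interaction call was lost without such probe sets for ABCC3 at -0.28, ANXA6 at 0.52, NRG1 at 0.26, IL1A at 0.0175 and SLC2A1 at -0.155, with the median of all probe sets for ALDH1L2 at -0.325, HK2 at 0.085, IL11 at -0.22, ZEB1 at 0.325 and SCNN1A, whose adjusted p by limma was then 1.0, and with their mean for ZEB1 at 0.0338. The array gives no detection call in these data, so a difference against a dim value may be set by background signal.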
